A study of Mus musculus with 11 samples.

Results

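Calprotectin and related neutrophil effector genes were followed in mouse tumours 2 days after an injection of doxorubicin (DX). The members were S100a8, S100a9, Lcn2, Retnlg and Hcar2. The gene annotation covered only 19215 of the 45281 probes on the array, so unnamed probes of these genes may exist. All probes annotated to the 5 genes were taken, which gave 5 probes, 1 for each gene. All 5 passed the filter on dim probes and were among the 10623 genes tested. The members had been selected on their differences between DX and PBS in wild-type mice, in earlier results of the same arrays. Their values in that comparison, and in every comparison that uses those arrays, are therefore a description without a test.

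The tumours were labelled MCA fibrosarcoma and grew under the skin of C57BL/6 mice aged 10 to 12 weeks. The number beside MCA in the source names rises by 1 from sample to sample, from 205 to 215, so the labels do not settle that all tumours are of 1 line, and any difference between lines cannot be told apart from the differences between groups. Mice were of genotype wt (WT) or FPR1-/- (KO, lacking formyl peptide receptor 1), and in the tumours nothing tells host RNA from tumour RNA. When a tumour covered 25 to 45 mm2 it received 2.9 mg/kg DX in 50 μL PBS, or PBS alone, and was taken 2 days later. There were 3 tumours each in WT PBS, WT DX and KO PBS, and 2 in KO DX. Nothing states which mice shared a cage or a day, so a p-value measures the spread between these samples only. No probe was named Fpr1, so the knockout itself was not checked here.

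S100a8 and S100a9 encode the subunits of calprotectin, a calcium-binding protein that fills the cytosol of neutrophils and, at lower levels, of monocytes. Released at sites of injury, calprotectin binds Toll-like receptor 4 and the receptor Ager and withholds zinc and manganese from microbes. Lcn2 encodes lipocalin 2, stored in specific granules of neutrophils and also made by stressed epithelia, which binds bacterial siderophores and so withholds iron. Retnlg encodes a rodent resistin-like protein of neutrophils and bone marrow. Hcar2 encodes the niacin and beta-hydroxybutyrate receptor, a Gi-coupled receptor of neutrophils, macrophages and adipocytes.

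S100a8 and S100a9 lie side by side on mouse chromosome 3 with 0 protein-coding genes between them, in a cluster of S100 genes. Lcn2 lies on chromosome 2, Retnlg on chromosome 16 and Hcar2 on chromosome 5. The upstream sequences of 4 members are shown because these genes were all low in WT PBS and high in WT DX tumours. Of these genes only S100a8 and S100a9 share a chromosome. The 250 bases before the start are from RefSeq (GRCm38.p6), 5′ to 3′ on the gene's strand, and capitals mark letters that match a searched motif. The windows are chr3:90668821-90669070 (+ strand) for S100a8, chr3:90695722-90695971 (- strand) for S100a9, chr2:32387740-32387989 (- strand) for Lcn2 and chr16:48872358-48872607 (+ strand) for Retnlg. The promoter table gave no entry for Hcar2.
S100a8: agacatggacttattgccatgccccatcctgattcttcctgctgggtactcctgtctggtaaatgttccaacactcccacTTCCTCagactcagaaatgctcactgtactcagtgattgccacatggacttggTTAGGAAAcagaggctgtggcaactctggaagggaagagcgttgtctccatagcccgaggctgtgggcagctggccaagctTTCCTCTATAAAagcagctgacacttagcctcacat
S100a9: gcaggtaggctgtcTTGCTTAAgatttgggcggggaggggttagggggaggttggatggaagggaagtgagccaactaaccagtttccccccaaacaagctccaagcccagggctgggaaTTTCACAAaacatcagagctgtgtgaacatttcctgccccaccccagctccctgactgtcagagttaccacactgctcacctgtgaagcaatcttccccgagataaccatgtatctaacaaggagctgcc
Lcn2: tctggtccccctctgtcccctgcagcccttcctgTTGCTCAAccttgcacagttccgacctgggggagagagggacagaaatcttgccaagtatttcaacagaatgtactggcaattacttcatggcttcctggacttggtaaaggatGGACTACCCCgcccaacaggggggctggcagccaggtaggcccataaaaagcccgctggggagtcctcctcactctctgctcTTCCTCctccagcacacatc
Retnlg: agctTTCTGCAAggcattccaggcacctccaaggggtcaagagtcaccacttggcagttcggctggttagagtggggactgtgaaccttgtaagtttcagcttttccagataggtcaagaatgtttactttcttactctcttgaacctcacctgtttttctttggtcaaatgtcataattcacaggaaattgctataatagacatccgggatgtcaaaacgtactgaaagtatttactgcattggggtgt

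The motifs were searched on both strands except the TATA box, which was searched on the gene's strand. The C/EBP motif (TTNNGNAA) was found in all 4 windows and in 36.8% of 32851 mouse promoter windows of the same length. The PU.1 motif (GAGGAA) was found in S100a8 and Lcn2 and in 23.3% of windows. The NF-kB motif (GGGNNNNNCC) was found in Lcn2 alone of the 4 and in 45.8% of windows. The TATA box (TATAAA) was found in S100a8 alone of the 4, from 30 to 25 bases before the start, and in 7.59% of windows, and there it adjoins a PU.1 match. The STAT motif (TTCNNNGAA, in 7.02% of windows) and the AP-1 motif (TGANTCA, in 6.75%) were in none of the 4. A match is a run of letters and says nothing of binding.

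Detection was alike across the 11 arrays apart from a dim BeadChip. Between 35.7% and 40.2% of probes had a detection p under 0.05, and the median intensity was 109.7 and 118.1 on the arrays of chip 2 (WT PBS 1 and KO PBS 2) and 150.7 to 169.4 on the others. Arrays of a group correlated at 0.976 to 0.992 across genes. The probes of S100a8, S100a9, Lcn2 and Hcar2 were detected on all 11 arrays, and that of Retnlg on all but WT PBS 3. Levels below are log2 normalized intensities, on which 1 unit is a doubling, and they compare arrays for 1 gene, never 1 gene with another. In bulk tumour RNA, fewer cells of a type and less RNA per cell cannot be told apart.

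All 5 genes had their lowest group mean in WT PBS tumours. In PBS, 4 of them were higher in every KO than in every WT tumour, as were 4.9% of all genes. The members had been chosen through the WT PBS arrays, so these counts are a description. After DX the levels in WT and KO tumours lay close together. The difference between the DX and PBS means was smaller in KO than in WT tumours for each of the 5 genes, and for Lcn2 it was near 0 in KO. The plot of levels by array shows this for each gene.

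**Figure D1:**
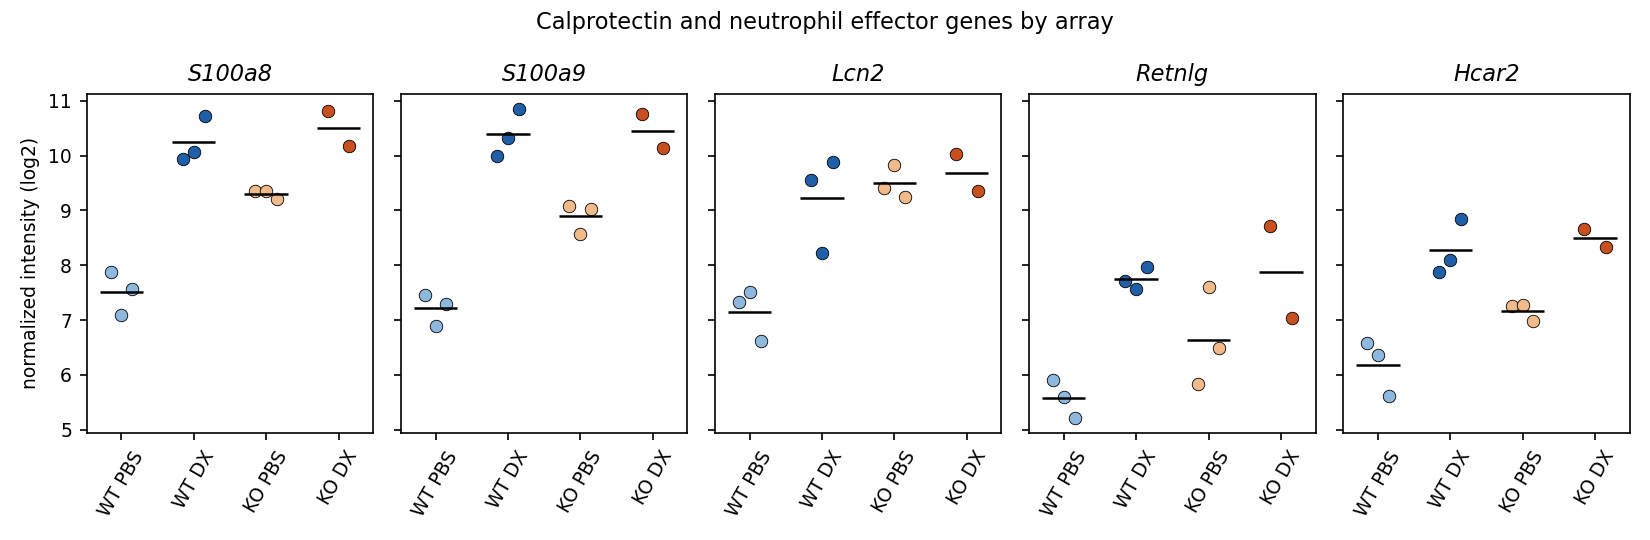
Log2 normalized intensity of each gene (vertical axis) in the 4 groups (horizontal axis); each point is 1 array and each bar the group mean. WT PBS arrays sit lowest for every gene except Retnlg, where KO PBS 1 (5.84) lies among them, and the KO PBS arrays of S100a8 (9.20 to 9.36) sit between WT PBS (7.09 to 7.88) and WT DX (9.94 to 10.72).

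S100a8, which encodes the smaller calprotectin subunit, stood at 7.88, 7.09 and 7.57 in WT PBS 1, 2 and 3, a mean of 7.51 ± 0.40 (SD, n = 3). In WT DX it stood at 9.94, 10.06 and 10.72, a mean of 10.24 ± 0.42 (SD, n = 3). The KO PBS tumours gave 9.36, 9.35 and 9.20, a mean of 9.31 ± 0.09 (SD, n = 3), and the KO DX tumours 10.82 and 10.17, a mean of 10.49 ± 0.46 (SD, n = 2). The KO PBS values lay close together, above every WT PBS value and below every DX value. The order of the means was WT PBS, KO PBS, WT DX and KO DX, and only the last pair overlapped. The difference between DX and PBS was 2.72 (SE 0.254, 6.61-fold) in WT and 1.19 (SE 0.284, 2.28-fold) in KO.

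S100a9, which encodes the larger subunit, stood at 7.45, 6.89 and 7.30 in WT PBS and at 9.99, 10.32 and 10.85 in WT DX. The means were 7.21 ± 0.29 and 10.39 ± 0.43 (SD, n = 3 each). In KO PBS it stood at 9.08, 8.56 and 9.03, a mean of 8.89 ± 0.29 (SD, n = 3), and in KO DX at 10.76 and 10.13, a mean of 10.45 ± 0.44 (SD, n = 2). The groups fell in the same order as for S100a8, with the DX groups overlapping and the PBS groups apart. The WT difference of 3.17 (SE 0.254, 9.02-fold) ranked 3 from the highest among the 10623 genes. The KO difference of 1.56 (SE 0.284, 2.94-fold) ranked 6 from the highest. S100a9 and S100a8 followed each other most closely of the members, with a root mean square difference of 0.28 log2 between their profiles, each centred on its own mean over the 11 arrays.

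Lcn2, the siderophore-binding lipocalin, had another pattern. It stood at 7.33, 7.52 and 6.61 in WT PBS, a mean of 7.15 ± 0.48 (SD, n = 3), and at 9.41, 9.83 and 9.24 in KO PBS, a mean of 9.50 ± 0.30 (SD, n = 3). The WT DX tumours gave 9.55, 8.22 and 9.89, a mean of 9.22 ± 0.88 (SD, n = 3), and the KO DX tumours 10.02 and 9.36, a mean of 9.69 ± 0.47 (SD, n = 2). Every KO PBS value lay above every WT PBS value, and the KO PBS values overlapped with those of WT DX and of KO DX. WT DX 2 was the lowest tumour of the DX groups. The KO minus WT difference in PBS, 2.35 (SE 0.396, 5.08-fold), was the highest of all 10623 genes. DX minus PBS in KO was 0.19 (95% interval -0.78 to 1.17).

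Retnlg varied most within groups, with a residual SD of 0.69, against 0.36 for S100a8 and S100a9, 0.4 for Hcar2 and 0.59 for Lcn2 (median of all genes 0.224). It stood at 5.91, 5.59 and 5.22 in WT PBS, a mean of 5.58 ± 0.35 (SD, n = 3), the last not detected, and at 7.72, 7.57 and 7.96 in WT DX, a mean of 7.75 ± 0.20 (SD, n = 3). The KO tumours were spread out, at 5.84, 7.60 and 6.49 in PBS and at 8.72 and 7.04 in DX, with means of 6.64 ± 0.89 (SD, n = 3) and 7.88 ± 1.19 (SD, n = 2). The KO groups overlapped with each other, and KO PBS overlapped with WT PBS. The highest KO PBS value was that of the array on the dim chip 2. The KO difference of 1.24 (SE 0.514) was 0.40 without KO DX 1, 2.08 without KO DX 2, 0.84 without KO PBS 1 and 1.72 without KO PBS 2.

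Hcar2, the niacin receptor, stood at 6.58, 6.36 and 5.62 in WT PBS and at 7.88, 8.09 and 8.85 in WT DX, with means of 6.19 ± 0.50 and 8.27 ± 0.51 (SD, n = 3 each). It stood at 7.26, 7.27 and 6.99 in KO PBS, a mean of 7.17 ± 0.16 (SD, n = 3), and at 8.66 and 8.34 in KO DX, a mean of 8.5 ± 0.23 (SD, n = 2). The groups lay in the order seen for calprotectin, with overlap between the DX groups only. DX minus PBS was 2.09 (SE 0.282, 4.25-fold) in WT and 1.33 (SE 0.315, 2.51-fold) in KO.

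DX against PBS in WT tumours is the comparison that chose the members. All 5 were higher in every WT DX than in every WT PBS tumour, as were 6.26% of all genes tested (7.47% were lower in every one), and nothing is read from that count. Both WT groups met on chip 5 only, where WT DX 3 stood above WT PBS 3 by 3.15 for S100a8, 3.55 for S100a9, 3.29 for Lcn2, 2.74 for Retnlg and 3.23 for Hcar2.

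DX against PBS in KO tumours shares no array with that comparison and is the 1 comparison in which the members were tested. It is not fully independent of their choice. Earlier results of these arrays were known when the members were chosen, and each gene's spread was estimated over all 4 groups. Of the 5 genes, 0 passed an adjusted p of 0.05 in limma, nor did any of the 10623 genes (0% called), and 4 of the 5 had an unadjusted p under 0.05, as had 5.36% of all genes. S100a9 was nearest the threshold, at 1.56 (95% interval 0.93 to 2.18, limma adjusted p = 0.213), higher in KO DX than in KO PBS on every array. Hcar2 at 1.33 (95% interval 0.63 to 2.02) and S100a8 at 1.19 (0.56 to 1.81) each had a limma adjusted p = 0.433. Retnlg stood at 1.24 (0.11 to 2.37, limma adjusted p = 0.9) and Lcn2 at 0.19 (limma adjusted p = 0.99). The KO DX values of S100a8, S100a9 and Hcar2 did not overlap with KO PBS, as for 13.3% of all genes (13.7% lay lower without overlap). Both KO DX arrays lay on chip 4, which held no KO PBS array, so no value within a chip exists for this comparison. The WT PBS 2 tumour shared chip 4, and KO DX 1 and KO DX 2 exceeded it by 3.87 and 3.24 for S100a9 and by 2.51 and 1.84 for Lcn2. Starting from the authors' own log2 table, S100a9 (1.53, limma adjusted p = 0.000226), S100a8 (1.31, limma adjusted p = 0.000335) and Hcar2 (0.66, limma adjusted p = 0.00468) passed, in a table where 5005 genes did, and Lcn2 stood at -0.20 (limma adjusted p = 0.249). In that table the median SD within groups was 0.072, against 0.224 here, and what was done to make it is not given in the sources used here.

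**Figure D2:**
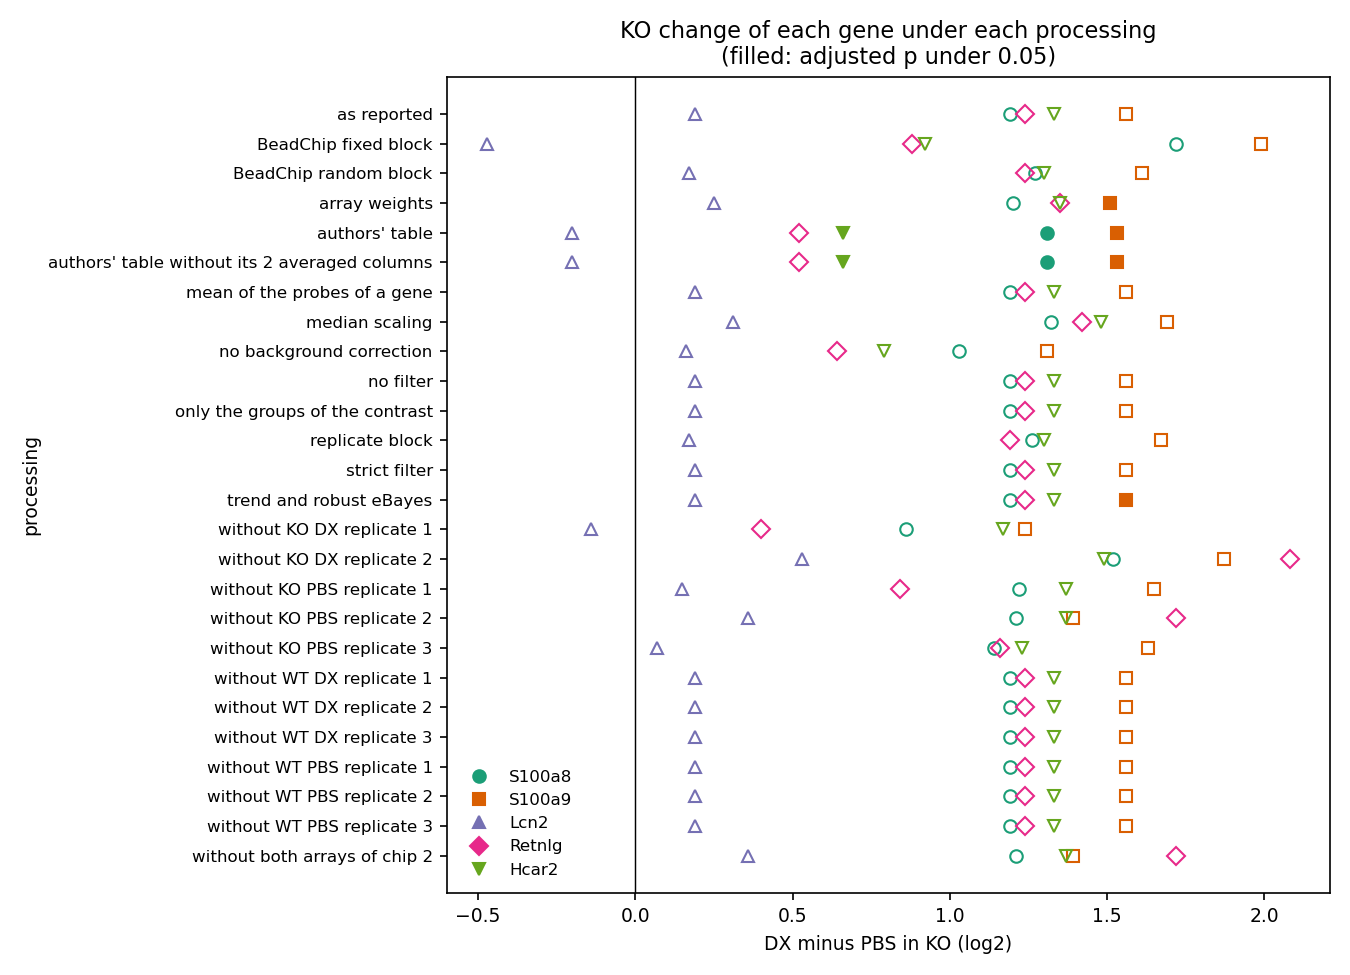
Difference between DX and PBS in KO tumours (horizontal axis, log2) for each gene under each processing alternative (vertical axis); filled symbols passed an adjusted p of 0.05. S100a9 lies between 1.24 and 1.99 throughout, and Lcn2 lies on both sides of 0, from -0.47 to 0.53.

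KO against WT in PBS asks how the genotypes differed without the drug, and uses the WT PBS arrays by which the members had been chosen. Lcn2 stood 2.35 higher in KO, S100a8 1.79 (SE 0.254, 3.46-fold), S100a9 1.68 (SE 0.254, 3.20-fold), Retnlg 1.07 (SE 0.460) and Hcar2 0.99 (SE 0.282). Lcn2, S100a8 and S100a9 ranked 1, 2 and 4 from the highest by this difference among all genes. KO and WT did not overlap for 4 of the 5, all but Retnlg, and KO lay above WT without overlap in 4.9% of all genes. Chips 2 and 5 each held a tumour of both PBS groups. On chip 2 the KO tumour was higher by 2.5 for Lcn2, 1.47 for S100a8, 1.11 for S100a9, 1.69 for Retnlg and 0.70 for Hcar2. On chip 5 it was higher by 2.63, 1.63, 1.73, 1.27 and 1.37 in the same order. KO thus stood above WT for each gene within both chips. Without background correction the differences were smaller, at 1.56 for Lcn2, 1.22 for S100a8, 1.06 for S100a9, 0.39 for Hcar2 and 0.38 for Retnlg. Without KO PBS 2 the Retnlg difference was 0.59.

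KO against WT in DX showed small differences for every member. The KO mean was above that of WT by 0.47 for Lcn2 (95% interval -0.50 to 1.45), 0.26 for S100a8 (-0.37 to 0.88), 0.23 for Hcar2 (-0.46 to 0.92), 0.13 for Retnlg (-1 to 1.26) and 0.06 for S100a9 (-0.57 to 0.68). The groups overlapped for all 5, and in 15.4% of all genes KO lay above WT without overlap (below in 11.7%). The sign of these differences was not stable. Without WT DX 2, whose Lcn2 was low, the Lcn2 difference was -0.03. Without KO DX 1 it was -0.25 for S100a9, -0.07 for S100a8 and -0.71 for Retnlg, and without WT DX 1 it was -0.14 for S100a9. From the authors' log2 table it was -0.53 for Lcn2, -0.24 for Retnlg and -0.17 for Hcar2. The intervals allow a difference of more than 1 log2 unit for Lcn2 and Retnlg. No chip held both DX groups, so the BeadChip and the genotype cannot be told apart in this comparison except through a model. With the chip as a fixed term the difference turned to -0.89 for Lcn2, -0.72 for Retnlg and -0.45 for Hcar2.

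The DX effect in KO minus that in WT was -1.87 for Lcn2 (SE 0.594), -1.62 for S100a9 (SE 0.381), -1.54 for S100a8 (SE 0.382), -0.94 for Retnlg (SE 0.689) and -0.76 for Hcar2 (SE 0.422). It contains the WT contrast that chose the members, which favours a negative sign, and so has no test here. It was -3.54 for Lcn2, -2.13 for Retnlg and -1.68 for Hcar2 with the chip as a fixed term, and -0.25 for both Hcar2 and Retnlg without background correction. Leaving out 1 array moved it to -0.47 for Hcar2 without WT DX 3 and -0.48 without WT PBS 3, and for Retnlg to -1.78 without KO DX 1, -0.09 without KO DX 2 and -0.46 without KO PBS 2. In the plot of differences, the KO minus WT value stands higher in PBS than in DX for every gene. The 95% interval of Retnlg in PBS was 0.06 to 2.08.

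**Figure D3:**
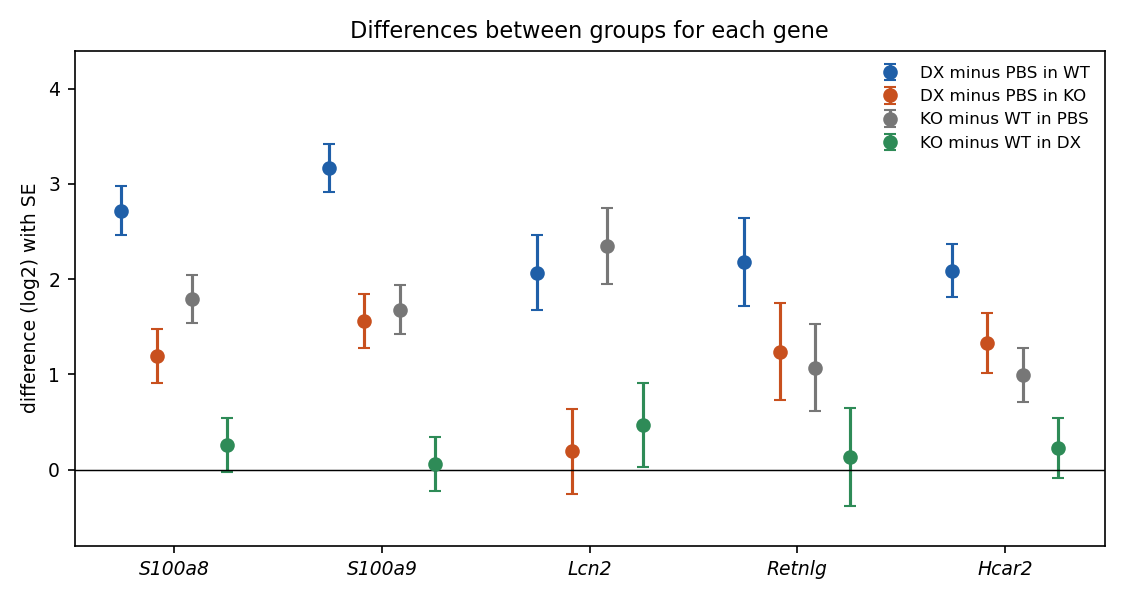
Difference between group means in log2 units with its SE (vertical axis) for each gene (horizontal axis), in 4 comparisons. Points for DX minus PBS run from 2.07 to 3.17 in WT and from 0.19 to 1.56 in KO, and those for KO minus WT run from 0.99 to 2.35 in PBS and from 0.06 to 0.47 in DX.

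Direct differences between WT DX and KO PBS tumours of a chip can be set beside these. On chip 1 WT DX 1 exceeded KO PBS 1 by 0.13 for Lcn2, 0.58 for S100a8, 0.61 for Hcar2, 0.92 for S100a9 and 1.88 for Retnlg. On chip 5 WT DX 3 exceeded KO PBS 3 by 0.65, 1.51, 1.87, 1.81 and 1.47 in the same order. In both chips Lcn2 had the smallest difference of the 5.

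Among the members, the profile of Lcn2 differed most from that of S100a9 (root mean square difference 0.87 log2 over the 11 arrays) and least from that of S100a8 (0.65). Hcar2 lay 0.42 from S100a8, and Retnlg lay nearest to Hcar2 (0.51). Over all genes tested other than the members, the profiles nearest to S100a8 were those of Ccl3 (0.43), a macrophage and neutrophil chemokine, Hdc (0.46), the histamine-forming enzyme, and Cstdc4 (0.51), a stefin. Nearest to S100a9, with the members again left out here and below, were Cxcl2 (0.47), a chemokine that draws neutrophils, Ccl3 (0.48) and Cstdc4 (0.51). Nearest to Hcar2 were Hdc (0.24), Cstdc4 (0.34) and Ccl4 (0.36), a chemokine of the same family as Ccl3. Nearest to Retnlg were Ffar2 (0.42), a short-chain fatty acid receptor of neutrophils, Hdc (0.44) and F10 (0.51), coagulation factor X. Nearest to Lcn2 were Arg2 (0.51), the mitochondrial arginase, Saa3 (0.57), an acute-phase serum amyloid, and Ms4a8a (0.61), a membrane protein.

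The 3 genes nearest to Lcn2 were, as it was, higher in every KO PBS than in every WT PBS tumour, beside 4.9% of all genes. Arg2 rose in WT by 1.5 (limma adjusted p = 0.0288), was 1.5 higher in KO than WT in PBS, and stood at 0.66 for DX in KO (limma adjusted p = 0.9). Saa3 stood at 1.61 for DX in WT (limma adjusted p = 0.212), 1.32 higher in KO than WT in PBS, and 0.05 for DX in KO. Ms4a8a rose in WT by 1.76 (limma adjusted p = 0.0452), was 1.17 higher in KO than WT in PBS, and stood at 0.62 for DX in KO. Arg2 was detected on 1 of 3 WT PBS arrays. These genes were picked for likeness over the same arrays, so their shape, their order in PBS and their p-values are a description.

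Of a list of 43 other granule and effector genes of neutrophils 27 were measured, of which 3 rose in WT, 0 fell and 24 did not pass, at a median difference of 0.71 beside -0.03 over all genes (0.555% of all genes rose, 0.0659% fell). Hdc rose by 2.10 (limma adjusted p = 0.0264), Slpi, a secreted protease inhibitor, by 1.15 (limma adjusted p = 0.0288) and Il1r2, the decoy receptor of interleukin 1, by 1.16 (limma adjusted p = 0.0452). In KO 0 of the 27 passed, at a median of 0.34 beside -0.01 over all genes. This list and those below were chosen with earlier results of these arrays known, so their counts are a description. Csf3r, the G-CSF receptor, stood at 0.84 in WT (limma adjusted p = 0.151) and 0.81 in KO (limma adjusted p = 0.649). Cxcr2, the main chemokine receptor of neutrophils, was detected on 0 of 3 arrays in each PBS group, 1 of 3 in WT DX and 2 of 2 in KO DX. It was at least 1.83-fold higher with DX in KO (limma adjusted p = 0.908). No minimum fold is given for Cxcr2 in WT (limma adjusted p = 0.294), where 1 of 3 DX arrays detected it. Mmp9, the gelatinase that binds lipocalin 2, stood at 0.20 in WT and -0.43 in KO. The genes Mpo, Elane, Camp, Ngp and Ly6g were not analysed here.

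In PBS, 6 of the 27 lay higher in every KO than in every WT tumour, beside 4.9% of all genes, and 0 lay lower. They were Cxcr2, detected on no PBS array, Hdc (by 0.92), Clec4d (by 0.60) and Clec4e (by 0.57), which are C-type lectin receptors, Acod1 (by 0.66), the itaconate-forming enzyme, and Ncf1 (by 0.57), an oxidase subunit. The 6 were named after their values were seen. The median of the list was 0.26 beside 0 over all genes.

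**Figure D4:**
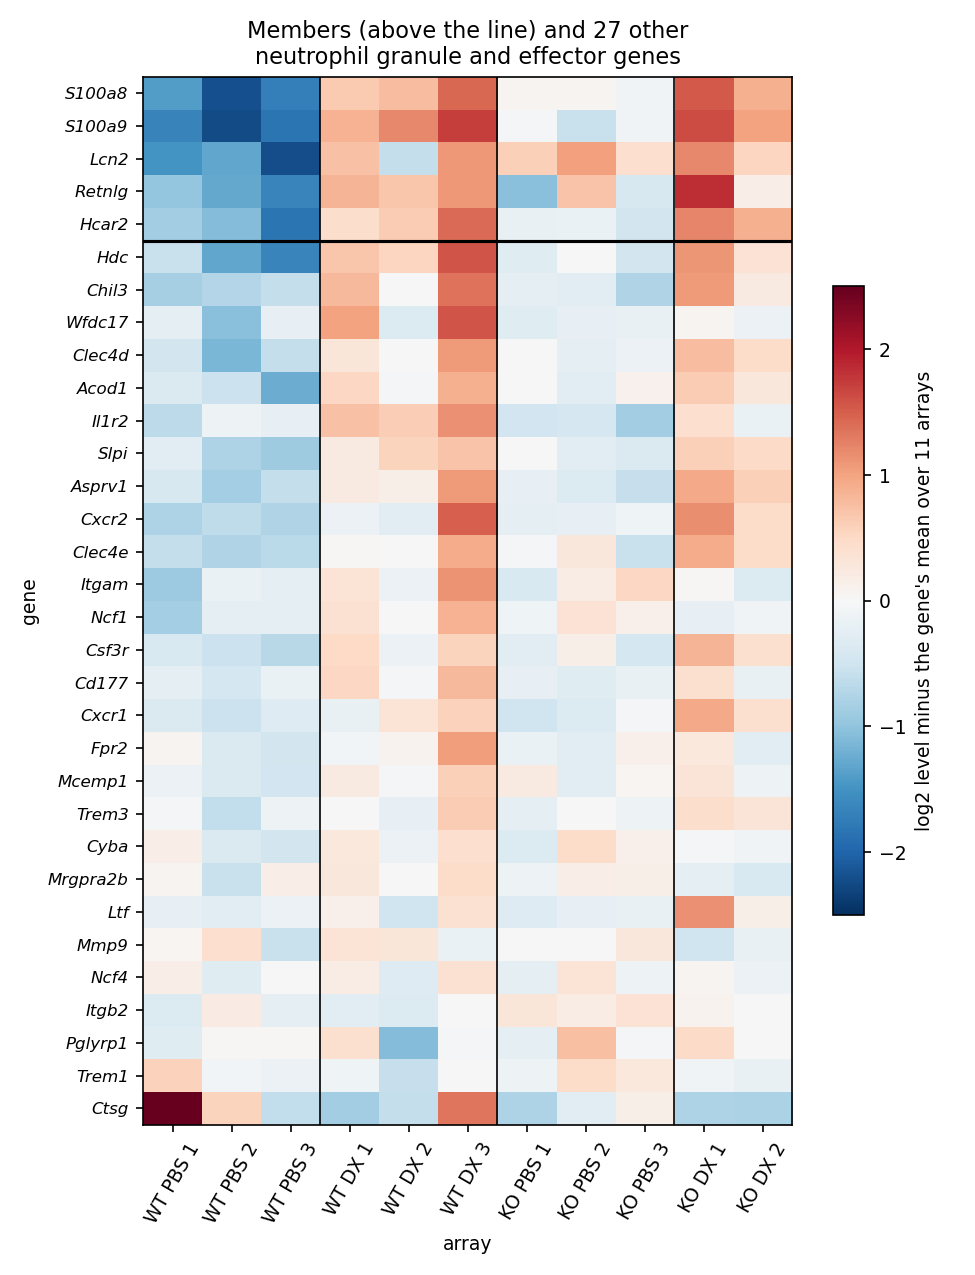
Log2 level of each gene minus its mean over the 11 arrays (colour) for the 5 members, above the line, and 27 other neutrophil granule and effector genes, below it (rows, ordered by the WT difference), in each array (columns). The WT PBS arrays are the lowest for the members other than Retnlg, and WT DX 3 and KO DX 1 are the highest or nearly so for many rows, while Ctsg is highest in WT PBS 1 and next in WT DX 3.

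Of the receptors and partners of the members, 1 passed the test. Of 26 listed genes 15 were measured. Cap1, a cyclase-associated protein described as a receptor of human resistin, rose in WT by 0.97 (limma adjusted p = 0.0319), 0 fell and 14 did not pass, at a median of 0.20. In KO 0 passed, at a median of -0.06. Tlr4, which binds calprotectin, stood at 0.47 in WT (limma adjusted p = 0.262) and 0.35 in KO (limma adjusted p = 0.958).

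The other S100 genes did not pass the test. Of 15 listed genes 11 were measured, S100pbp, which encodes a binding protein of an S100 protein, and 10 S100 genes of chromosome 3, and 0 passed in WT or KO, at medians of 0.07 and 0.19. Their differences in WT ran from -0.25 for S100a14, an epithelial S100 protein, to 0.25 for S100a16. The smallest p-values were those of S100a1, a muscle calcium sensor, at -0.44 in KO (limma adjusted p = 0.921) and S100a4, a metastasis-associated S100 protein, at 0.47 in KO (limma adjusted p = 0.941). KO minus WT in PBS had a median of -0.19 for these 11 genes and was above 0 for 2 of them. Of the lipocalin and resistin-like families 3 of 17 genes were measured and 0 passed. Orm1, an acute-phase glycoprotein, was detected on 0 of 3 WT PBS and 2 of 3 WT DX arrays (limma adjusted p = 0.449 in WT). No minimum fold is given for it. Retnla, the resistin-like gene of alternatively activated macrophages, stood at -2.02 in KO (SE 0.988, limma adjusted p = 0.957).

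A list of cytokines, chemokines and transcription factors around the induction of these genes held 30 genes. It too was chosen with earlier results of these arrays known, so its counts are a description. Over all genes 0.555% rose and 0.0659% fell in WT, at a median of -0.03. Of the 23 measured list genes, 5 rose in WT, 0 fell and 18 did not pass, at a median of 0.62. They were Cxcl2 by 3.79 and Cxcl1 by 1.70 (both limma adjusted p = 0.000611), Il1b by 1.28 (limma adjusted p = 0.0319), which encodes interleukin 1 beta, Ppbp, a platelet chemokine, by at least 18.1-fold (limma adjusted p = 0.000397), and Csf2, which encodes GM-CSF, by at least 1.07-fold (limma adjusted p = 0.0452). Ppbp and Csf2 were detected on 0 of 3 WT PBS arrays. In KO 0 of 23 passed, at a median of 0.16. In PBS, 11 of the 23 lay higher in every KO than in every WT tumour and 1 lower, beside 4.9% and 4.48% of all genes. Cxcl2 was higher there by 1.78, Cxcl1 by 1.34 and Il1b by 1.01, while Ppbp and Csf2 were detected on no PBS array and so have no fold there. Csf2 was still among the 11, by an order of values that were not detected. Of the 5 genes that rose, 4 encode chemokines or an interleukin and none a transcription factor. Csf3, which encodes G-CSF, was the gene that lay lower, by -0.65.

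Of 13 measured iron and siderophore genes, Tfrc, the transferrin receptor, fell by 0.87 in WT (limma adjusted p = 0.031), 0 rose and 12 did not pass. In KO 0 passed. Slc40a1, the iron exporter, stood at 0.87 in WT and 2.34 in KO (limma adjusted p = 0.213), and Hmox1, which degrades haem, at 1.44 and 1.32.

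Markers of other cell types were read beside the members, since S100a8, S100a9 and Lcn2 are also made by monocytes and by stressed keratinocytes. Of 18 monocyte and macrophage markers 15 were measured, with medians of 0.42 in WT and 0.02 in KO, where 0 passed. Chil3 is in both this list and the neutrophil list. Ccr2, the receptor of Ccl2, rose in WT by 1.10 (limma adjusted p = 0.0301), Fcgr1, which encodes an Fc receptor, by 0.93 (limma adjusted p = 0.0489) and Plac8 by 0.88 (limma adjusted p = 0.0325), 0 fell and 12 did not pass. The summed normalized intensity of these 15 ran from 26351 to 30690 in WT PBS, 29736 to 44175 in WT DX, 30762 to 32045 in KO PBS and 29123 to 33170 in KO DX. In PBS the KO tumours all lay above the WT tumours in this sum, by a small margin.

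Of 17 keratinocyte markers 9 were measured and 0 passed, with medians of 0.89 in WT and 0.59 in KO. Krt16, a keratin of stressed epidermis, stood at 1.45 in WT (limma adjusted p = 0.0717) and Dmkn, a secreted epidermal protein, at 1.40 (limma adjusted p = 0.122). Their sum was 1147 to 1498 in WT PBS, 1157 to 3306 in WT DX, 1040 to 1642 in KO PBS and 1455 to 1586 in KO DX, with WT DX 3 alone above 1642. The highest WT DX values of all 5 members were also those of WT DX 3. Krt5 and Krt1 were not analysed here. In PBS the keratinocyte median for KO minus WT was 0.02, with 5 of the 9 above 0.

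Of 18 skeletal muscle markers 16 were measured, 4 rose in WT (Mylpf, Myl1, Tnni2 and Tnnt3, fast-fibre contractile genes, by 1.31 to 1.83), 0 fell and 12 did not pass. Their sum was 15828 to 28820 in WT DX and 6603 to 11853 in the 8 tumours of the other groups, KO DX included. The sum of the 3 measured platelet markers, which hold Ppbp, was 3502 to 7557 in WT DX and 4014 to 6526 in KO DX, against 1623 to 2262 in the PBS tumours of both genotypes. Red blood cell markers had a median of -2.19 in WT and -0.84 in KO, with Hbb-bs and Hbb-bt (beta globins) falling in WT by 2.13 and 2.28 (limma adjusted p = 0.0452 and 0.0461). The part of these cell types in the levels of the members was not tested.

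**Figure D5:**
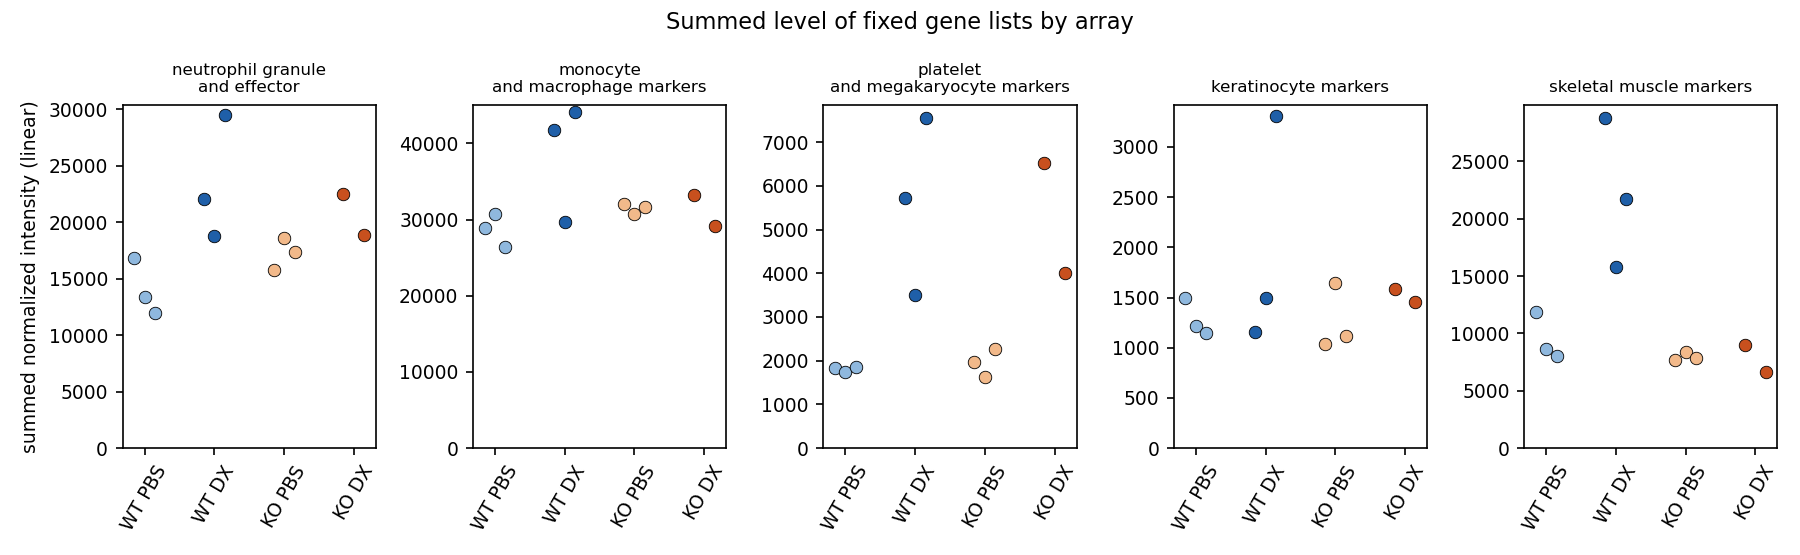
Summed normalized intensity (vertical axes, linear, from 0) of 5 fixed gene lists in each array (points) of the 4 groups (horizontal axis). Neutrophil genes are highest in WT DX 3 (29513) and lowest in WT PBS 3 (11956), keratinocyte markers stand out in WT DX 3 alone (3306), and skeletal muscle markers are high in the WT DX arrays alone.

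The remaining marker lists showed 0 genes past the threshold in either DX comparison. These were lists of eosinophils and basophils (2 of 10 measured, median 0.95 in WT and -0.01 in KO), mast cells (8 of 9, 0.42 and -0.08), adipocytes (4 of 9, 0.87 and 0.42), T cells (5 of 12, -0.03 and -0.51), B cells (4 of 9, 0.11 and -0.70), NK cells (5 of 9, 0.34 and 0.09), dendritic cells (6 of 9, 0 and 0.04), endothelium (9 of 9, 0.09 and -0.11) and fibroblasts (10 of 10, -0.19 and -0.52).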

How the data were processed

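RNA of 11 tumours was measured on Illumina mouse bead arrays. Per the file headers, the authors deposited for each of 45281 probes and each array a linear intensity, not normalized, and a detection p-value. The authors also deposited log2 values of 19215 probes. Per the submitters' processing notes Partek was used; how is not given in the sources used here. In that table WT DX 2 and WT PBS 2 equal the mean of the other 2 columns of their group (largest deviation 7e-05).

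In limma 3.58.1 (R 4.3.3), neqc was run with negative-control levels inferred from the detection p-values (offset 16, quantile normalization, log2 output). A probe stayed in when 2 or more arrays detected it, at a detection p below 0.05 (20433 probes), genes were named from the supplied platform annotation (16496 probes with 1 symbol, 9 with several, 2710 without; 16479 updated through Entrez numbers), and the brightest probe stood for a gene (10623 genes). The annotation covered the authors' probes only, so a list gene not counted as measured may still have an unnamed probe on the array. A model with 4 group means over 11 arrays (7 residual and 4.04 prior degrees of freedom) gave differences, SEs and Benjamini-Hochberg adjusted p-values over all genes, with a threshold of 0.05. A fold is "at least" where 1 group was detected on no array and the other on every array, against the lowest detected signal. The fit was tested on simulated data.

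Members and lists were chosen with earlier results of these data known. Named were the members and the 3 nearest profiles of each member. List genes past the threshold were named too (at most 6 a list, otherwise the 2 with the smallest p). Csf3r, Cxcr2, Mmp9, Tlr4, Slc40a1, Hmox1, Csf3, genes apart in PBS and S100 extremes were added after their values were seen. The number of arrays limits the precision. Same-numbered replicates did not deviate together (4 of 15 pairs above 0.1 in correlation across genes, from -0.29 to 0.30), so replicate numbers were not used as pairs. Alternatives are given in the closing section.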

Additional observations from a re-analysis of the deposited data

How the results depend on the processing

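Counts of genes past the threshold depended most on the processing. DX against PBS in KO called 0 genes, against 5005 in the authors' table, 3620 there without its 2 averaged columns, 28 with array weights, 6 with trend and robust moderation, 3 without background correction, 2 with the mean of a gene's probes, and 1 each with median scaling, the chip as a fixed term or only the groups compared. In WT it called 66, against 5450, 2764, 363 and 116 under the first 4 of these in the same order, 41 without both arrays of chip 2, 23 with median scaling and 12 with only the groups compared. Leaving out 1 array gave 0 to 2 in KO and 10 to 233 in WT (lowest without WT DX 3, highest without WT DX 2). Among the list genes the authors' table called 47 in KO and 65 in WT, median scaling 1 and 5, and the fixed chip term and no background correction 1 each in KO. The authors' table has a smaller spread within groups (0.072 against 0.224); the cause was not tested. Its use without averaged columns and the fit without chip 2 were chosen after seeing the data.

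In KO, S100a9 passed in the authors' table (1.53, adjusted p = 0.000226, and 0.00194 without averaged columns), with array weights (1.51, adjusted p = 0.0355) and with trend and robust moderation (1.56, adjusted p = 0.0399). S100a8 (1.31, adjusted p = 0.000335 and 0.00245) and Hcar2 (0.66, adjusted p = 0.00468 and 0.0159) passed in both forms of the authors' table. Lcn2 turned to -0.20 there (adjusted p = 0.249 and 0.331), to -0.47 with the fixed chip term (adjusted p = 0.726) and to -0.14 without KO DX 1; the cause was not tested. Leaving out 1 array gave 0.86 to 1.52 for S100a8, 1.24 to 1.87 for S100a9, -0.14 to 0.53 for Lcn2, 0.40 to 2.08 for Retnlg and 1.17 to 1.49 for Hcar2, each lowest without KO DX 1 and highest without KO DX 2.

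Untested differences moved as follows. In both forms of the authors' table, DX minus PBS in WT was 2.19 for S100a8, 2.34 for S100a9, 1.32 for Retnlg and 1.36 for Hcar2, KO minus WT in PBS was 1.23 for S100a8, 1.07 for S100a9 and 0.54 for Hcar2, KO minus WT in DX was -0.53 for Lcn2, and the difference of DX effects was -0.88 for S100a8 and -0.81 for S100a9. Without background correction, the WT values were 2.02 for S100a8, 2.31 for S100a9, 1.36 for Lcn2, 0.89 for Retnlg and 1.04 for Hcar2, the PBS values 1.22 for S100a8, 1.06 for S100a9, 1.56 for Lcn2 and 0.39 for Hcar2, and the differences of effects -0.99 for S100a8, -1 for S100a9, -1.2 for Lcn2 and -0.25 for Hcar2. With the fixed chip term, the WT values were 3.07 for Lcn2, 3.02 for Retnlg and 2.59 for Hcar2, the DX values 0.62 for S100a8, 0.51 for S100a9, -0.89 for Lcn2, -0.72 for Retnlg and -0.45 for Hcar2, and the differences of effects -1.06 for S100a8, -1.05 for S100a9, -3.54 for Lcn2, -2.13 for Retnlg and -1.68 for Hcar2. Leaving out 1 array moved KO minus WT in DX for Retnlg from -0.71 to 0.97 and its difference of effects from -1.78 to -0.09.

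List medians moved without background correction (WT: chemokine and inducer list 0.31, neutrophil genes 0.32; KO: S100 genes 0.09), with median scaling (KO: iron genes 0.25, receptors 0.08, S100 genes 0.3), in the authors' table (WT: iron genes 0.03, receptors 0.3) and with the fixed chip term (WT: iron genes 0.03, receptors 0.36, lipocalin family 0.94). Median scaling set the median of all genes at 0.1 in KO and 0.16 for KO minus WT in DX. With replicate number as a block, S100a9 in KO was 1.67 (adjusted p = 0.0868) and the calls were 0 in KO and 63 in WT; same-numbered samples share only a number, and no call of a member changed. Fitting only the groups compared gives no other value for the difference of effects, which uses every group. Of 740 recomputed values, 635 counted as unchanged, by a rule that differed with the kind of value. A member's DX change in KO had to keep its sign and its side of the threshold, whatever its size. Other differences and list medians had to stay within the spread inside groups, and counts of genes had to stay of similar size. Probes near background, such as those of Retnlg and Cxcr2, are the least certain.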
